A study of Mus musculus with 5 samples.

Results

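The respiratory chain genes of mouse kidney cells were described from single-cell RNA profiles, taking every gene whose symbol begins with Nduf, Sdh, Uqcr, Cox4 to Cox8 or Atp5, together with the protein genes of the mitochondrial genome. These prefixes matched 109 of the 27998 genes in the count tables, 96 of them in the nucleus and 13 on the mitochondrial chromosome. The choice used names only and no measured value. By name, the nuclear genes comprised 38 for complex I and 7 for its assembly factors, 4 for complex II and 4 for its assembly factors, 8 for complex III, 18 for complex IV and 17 for complex V, the ATP synthase. The mitochondrial genes comprised 7 for complex I, 1 for complex III, 3 for complex IV and 2 for complex V.

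Complexes I to IV pass electrons from nutrients to oxygen and pump protons across the inner mitochondrial membrane, and the ATP synthase uses the proton gradient to make ATP. All of the chain except complex II combines subunits from the nuclear and the mitochondrial genome, which are transcribed by separate machinery. In the kidney, tubule cells are known for dense mitochondria that power salt and solute transport, whereas resting lymphocytes and neutrophils hold far fewer.

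All 5 mice were of strain C57BL/6j and carried a lupus model made by injecting pristane, an oil. The control group received saline (n = 2) and the other gut microbiota (fecal microbiota transplant, FMT) of MRL/MpJ mice, the parent strain of the lupus-prone MRL/lpr mouse (n = 3). The mice's age and sex are not in the labels. Sample codes beginning with C or D marked saline and B marked FMT, so a batch that follows them cannot be told apart from the treatment. The labels call the samples renal tubular epithelial cells, but the libraries also held many B cells, T cells, monocytes and neutrophils.

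The libraries held between 15333445 and 45309178 unique molecular identifiers (UMIs, each counting a captured RNA molecule), and between 2793 and 5993 cells per mouse were used. Any pair of libraries shared 3 to 12 cell barcodes. Cells were clustered with all respiratory chain genes left out, and clusters were named from marker genes, which gave 7 classes with at least 41 cells in every mouse. The tubule classes were proximal tubule, distal tubule and intercalated cells, which secrete acid or base, and the immune classes were B cells, T cells, neutrophils, and monocytes with macrophages. Levels are UMIs of a gene or gene group as a percentage or per 1000000 (CPM) of all UMIs of a class in a mouse. They are not divided by gene length, so genes are compared across classes and not with each other. In pooled UMIs of a class, fewer cells with a high level and a lower level in each cell cannot be told apart.

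Nuclear respiratory chain RNA separated the tubule from the immune cells in every mouse. In proximal tubule, where most filtrate is reabsorbed, the 96 genes made up 9.15% and 7.91% of UMIs in saline mice 1 and 2, and 8.11%, 9.12% and 9.52% in FMT mice 1 to 3. In distal tubule they made up 11.8% and 11.6% in the saline mice and 10.6%, 12.85% and 12.96% in the FMT mice. In intercalated cells the shares were 13.7% and 12.2% in the saline mice and 10.7%, 13.7% and 13.02% in the FMT mice. Every tubule value lay above every immune value, and proximal tubule lay below both other tubule classes, which overlapped each other.

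In B cells, the nuclear share was 2.18% and 1.90% in the saline mice and 1.99%, 2.099% and 2.14% in the FMT mice. In T cells it was 2.48% and 2.15%, and 2.14%, 2.28% and 2.23%. In monocytes and macrophages it was 2.74% and 2.65% in the saline mice and 2.93%, 3.14% and 2.91% in the FMT mice, the 1 class whose groups did not overlap. Neutrophils had 1.90% and 1.49% in the saline mice and 2.34%, 1.92% and 1.31% in the FMT mice. Apart from neutrophils, the highest mouse of a class exceeded the lowest by a factor of 1.15 to 1.28, and in neutrophils by 1.79.

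The monocyte difference between groups was 0.30 percentage points (saline 2.69% ± 0.06, SD, n = 2; FMT 2.99% ± 0.13, SD, n = 3). Summed counts of proximal tubule marker genes were 393 and 1692 CPM in monocytes of the saline mice and 2627, 1846 and 714 CPM in those of the FMT mice. Their part in the difference was not tested. Most of these cells came from 1 cluster, with 733 and 101 cells in the saline mice and 170, 102 and 30 in the FMT mice. Within it the nuclear shares were 2.74% and 2.52%, and 3.05%, 3.41% and 2.67%, so the groups overlapped. The difference was 0.04 percentage points as a mean over cells. It was -0.26 for all cells, whatever their cluster, with Lyz2 and none of the single markers of B, T and tubule cells. Neutrophils had no marker of their own in that choice, and their clusters held Lyz2 at 2635 and 9012 CPM. The main monocyte cluster held 6009 CPM, so cells chosen by Lyz2 were not monocytes and macrophages alone.

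RNA of the mitochondrial genome behaved differently, varying several-fold between mice within a class. In proximal tubule the 13 genes made up 6.63% and 10.7% of UMIs in the saline mice, and 8.51%, 5.37% and 4.72% in the FMT mice. In distal tubule they made up 2.03% and 2.67%, and 5.17%, 1.85% and 2.30%. In intercalated cells the shares were 3.65% and 5.99% in the saline mice and 10.6%, 3.82% and 1.52% in the FMT mice. Saline mouse 2 and FMT mouse 1 were thus above the other mice in each tubule class, with saline mouse 2 highest in proximal tubule and FMT mouse 1 highest in the others.

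The same pair of mice stood highest in the immune classes. In B cells the mitochondrial share was 1.63% and 4.52% in the saline mice and 2.63%, 1.62% and 1.57% in the FMT mice. In monocytes and macrophages it was 1.25% and 9.92%, and 6.77%, 3.58% and 2.04%, a 7.93-fold span. In neutrophils it was 0.565% and 5.87%, and 3.31%, 0.834% and 1.38%, a 10.4-fold span. In T cells it was 0.981% and 2.71%, and 1.77%, 0.825% and 1.05%. T cells had the lowest mean level of all 13 mitochondrial genes, and proximal tubule had the highest.

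Saline mouse 2 and FMT mouse 1 held the top 2 mitochondrial shares in 7 of 7 classes, so the order of mice crossed the treatment groups, which overlapped in every class. Their used cells also had the highest median depth, at 4283 and 4935 UMIs against 3256 to 3888 in the other mice. Of cells with at least 200 genes, 311 of 3584 in saline mouse 2 and 292 of 6604 in FMT mouse 1 were over the limit of 50% mitochondrial UMIs, against 64 to 147 cells in the other libraries. The part of depth or of cell quality in the mitochondrial share was not tested.

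**Figure D1:**
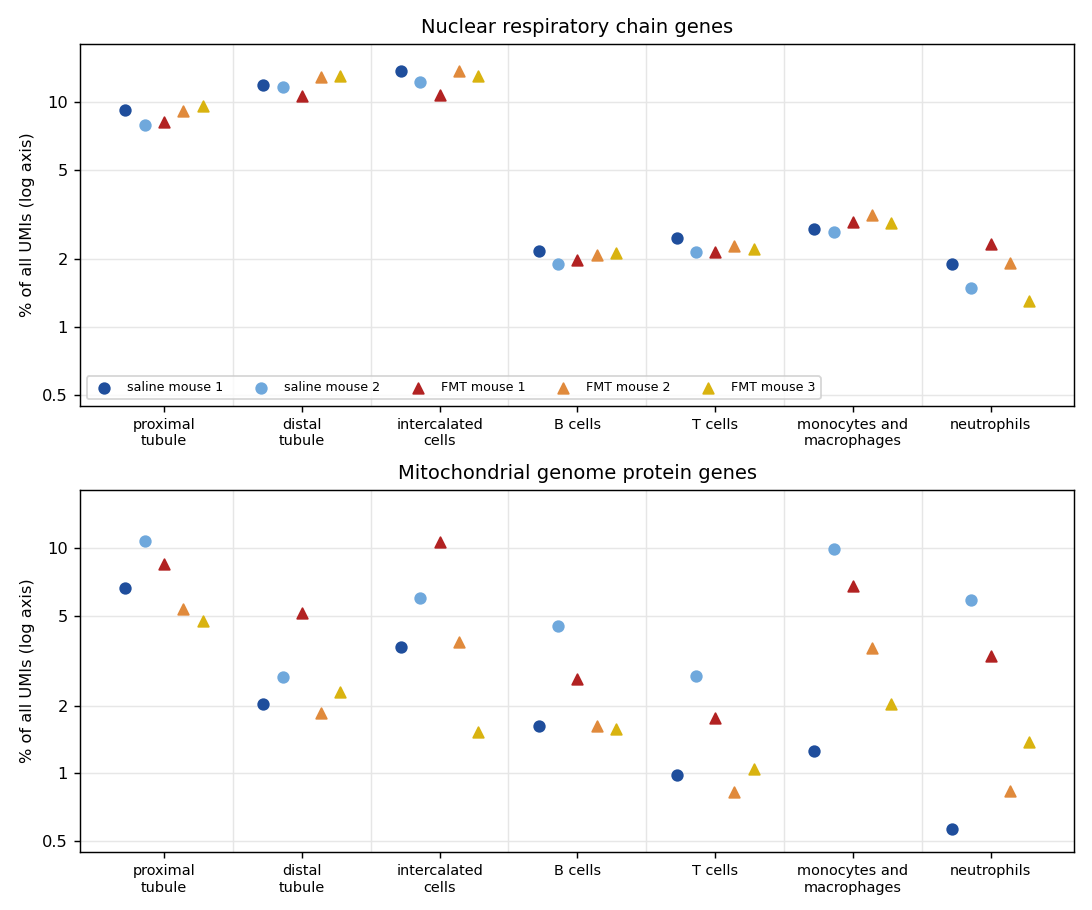
Share of all UMIs of a class taken by the 96 nuclear genes (top) and the 13 mitochondrial genes (bottom), on log axes, with 1 point per mouse, circles for saline and triangles for FMT. Nuclear shares lie close together within a class and separate tubule from immune cells, while mitochondrial shares spread widely, with saline mouse 2 and FMT mouse 1 on top in all 7 classes.

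The ratio of nuclear to mitochondrial RNA therefore followed the mouse as well as the lineage. Its log2 value in proximal tubule averaged 0.016 ± 0.64 for the saline group (SD, n = 2) and 0.57 ± 0.57 for the FMT group (SD, n = 3). In distal tubule the log2 ratio was 2.33 ± 0.30 and 2.11 ± 0.94, so nuclear RNA was the larger sum there. In B cells it was -0.42 ± 1.18 and 0.14 ± 0.47, and in neutrophils -0.11 ± 2.63 and 0.21 ± 0.89. No class had groups that did not overlap in this ratio.

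The makeup of the mitochondrial RNA also differed between mice, for some of its genes in the same way in every class. The gene mt-Nd4l, a small membrane subunit of complex I, held 4.64% and 0.836% of the mitochondrial UMIs of proximal tubule in the saline mice, and 1.45%, 2.85% and 4.80% in the FMT mice. In B cells it held 3.30% and 0.539%, and 1.02%, 2.53% and 2.85%. In neutrophils it held 3.24% and 0.642%, and 1.16%, 1.74% and 4.02%. Saline mouse 2 and FMT mouse 1, which had the most mitochondrial RNA, had the lowest mt-Nd4l share in all 7 classes.

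The same held in 7 of 7 classes for mt-Atp8, a short ATP synthase subunit, and for mt-Nd4 and mt-Nd5, proton-pumping subunits of complex I. In proximal tubule the mt-Atp8 share was 0.870% and 0.264% in the saline mice and 0.355%, 0.611% and 0.912% in the FMT mice. For mt-Nd5 it was 1.70% and 0.806%, and 0.972%, 1.53% and 1.89%. By contrast, this pair of mice had the highest share of mt-Atp6, a proton channel subunit of the ATP synthase, in 6 of 7 classes. For mt-Nd1 and for mt-Nd3 the shares of the saline mice lay above those of the FMT mice in 4 of 7 classes. The groups did not overlap in 1 class each for mt-Co2, mt-Co3 and mt-Nd6. These shares were not tested between groups.

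For mt-Nd4l the lower share was also a lower level in proximal tubule. It stood at 3078 and 894 CPM in the saline mice and 1236, 1528 and 2268 CPM in the FMT mice. Saline mouse 2 and FMT mouse 1 thus had the lowest mt-Nd4l level of their groups, and the same held there for mt-Atp8, at 577 and 283 CPM in the saline mice and 302, 328 and 431 CPM in the FMT mice. mt-Nd4l had its 2 lowest levels in this pair in 2 of 7 classes and mt-Atp8 in 1 of 7. mt-Cytb, the subunit of complex III, stood in proximal tubule at 10245 and 18135 CPM, and at 16056, 9407 and 7510 CPM. mt-Cytb, and with it mt-Nd1, mt-Nd2, mt-Co1, mt-Co2, mt-Co3 and mt-Atp6, had its 2 highest levels in saline mouse 2 and FMT mouse 1 in 7 of 7 classes. On the mitochondrial chromosome of mm10, mt-Nd4l (bases 9877 to 10173) overlaps the start of mt-Nd4 (10167 to 11544), and mt-Atp8 (7766 to 7969) overlaps mt-Atp6 (7927 to 8607). The sources used here do not say how reads across such a boundary were assigned, so the split within each overlapping pair is uncertain.

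**Figure D2:**
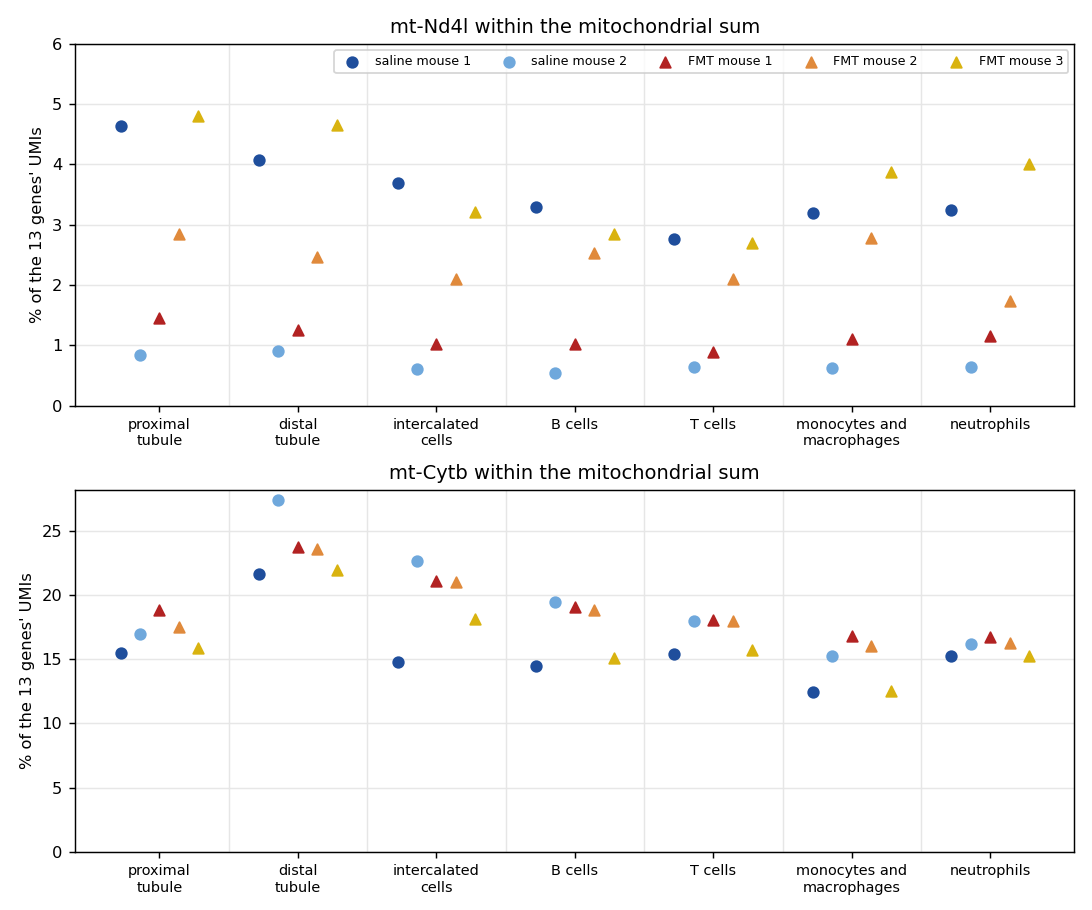
Share of mt-Nd4l (top) and mt-Cytb (bottom) among the UMIs of the 13 mitochondrial genes, in percent, by class and mouse. For mt-Nd4l, saline mouse 2 and FMT mouse 1 are the lowest points of all 7 classes; mt-Cytb spreads less, and in distal tubule saline mouse 2 is highest at 27.4%.

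A makeup that differed by lineage was seen for mt-Cytb. Its share of mitochondrial UMIs was 21.6% to 27.4% over the 5 mice in distal tubule, against 15.5% to 18.9% in proximal tubule and 12.4% to 16.8% in monocytes and macrophages. The distal range lay above the others, which overlapped, while intercalated cells reached 22.6%. Other abundant genes differed less, with mt-Co1, the catalytic core of complex IV, at 14.9% to 21.7% over all classes and mice.

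Single cells showed how unevenly mitochondrial RNA was spread. In intercalated cells the median cell held 0.321% and 0.578% mitochondrial UMIs in the saline mice, and 0.525%, 0.140% and 0.141% in the FMT mice, far under the pooled shares. The 10% of cells with the most mitochondrial UMIs (10 to 22 cells per mouse) held 94.1% and 74.3% of them in the saline mice and 56.9%, 91.5% and 93.2% in the FMT mice. In proximal tubule the corresponding cells held 33.2% to 42.1%. Intercalated cells also had the lowest median depth, 1142 to 2104 UMIs per cell, against 4626 to 6576 in proximal tubule.

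Intercalated cells fell into 2 clusters with contrasting mitochondrial RNA. The larger, with 638 cells, held 1.70% mitochondrial UMIs and 13.9% nuclear chain RNA among its other UMIs. The smaller, with 87 cells and led by Slc26a4 (pendrin, the chloride-bicarbonate exchanger of type B and non-A non-B intercalated cells), held 13.2% and 11.6%. In the mice with at least 20 cells of the smaller cluster, its mitochondrial share was 13.7% in saline mouse 2 and 15.4% in FMT mouse 1, where the larger cluster had 1.42% and 4.61%. The larger cluster's median cell had 0.338 of its own mouse's median UMIs and the smaller cluster's 1.15 times that median, and the part of depth was not tested. The smaller cluster gave 6, 30, 32, 16 and 3 cells in saline mice 1 and 2 and FMT mice 1 to 3.

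Proximal tubule was uneven too. Its 8 clusters ranged from 2.19% to 16.9% mitochondrial UMIs, while nuclear chain RNA ranged from 5.67% to 11.3% of the other UMIs. Across proximal tubule cells, nuclear and mitochondrial shares ran in opposite directions in all 5 mice, with Spearman correlations of -0.20 to -0.44 that describe cells of shared libraries. A cell's UMI number correlated with its nuclear share at 0.25 to 0.40 and with its mitochondrial share at -0.18 to -0.27. The part of depth was not tested. Proximal tubule clusters led by Kap and by Ugt2b38 were high in both, with 10.1% and 10.5% nuclear and 13.1% and 16.9% mitochondrial shares. Cells under 1% mitochondrial UMIs had a median nuclear share of 9.49% to 10.9% of their other UMIs in the 5 mice. Cells with 10% or more had 7.35% to 8.24%. Such cells under 1% made up 15.5% and 13.8% of proximal tubule cells in the saline mice and 10.1%, 25.6% and 30.1% in the FMT mice.

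Across classes, most nuclear genes followed the sum. Of the 96, 90 reached 10 CPM in their highest class, and in 78 of these every tubule value lay above every immune value. The mean over the 3 tubule classes exceeded that over the 4 immune classes by a median factor of 4.95 (range 0.933 to 30.4), against 1.76 for the mitochondrial genes. Intercalated cells were highest for 48 genes, distal tubule for 32, proximal tubule for 9 and an immune class for 1, Sdhaf1. Neutrophils were lowest for 54. In that class 7 neutrophil marker genes took 155031 to 355242 CPM, which leaves less of the total for all other genes.

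The complexes, grouped by gene name, shifted together. Median tubule-to-immune factors were 5.04 for complex I, 5.59 for complex II, 5.93 for complex III, 5.34 for complex IV and 4.80 for complex V. Complex I genes made up 28.6% to 32.3% of nuclear chain UMIs in every class and mouse, so the proportions of the complexes changed far less than their sum. Complex IV took 23.7% to 24.96% in B and T cells, below its 25.99% to 29.6% in the 3 tubule classes. The other immune classes were not below the tubule, with 26.4% to 27.7% in monocytes and macrophages and 28.8% to 30.5% in neutrophils. Assembly factors differed less between lineages, with median factors of 3.22 for complex I and 2.00 for complex II.

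The gene with the highest mean level of each complex, as grouped by gene name, showed the order of classes. Cox6c, a structural subunit of complex IV, averaged 6775 CPM in intercalated cells (range 5335 to 7839 over 5 mice), 5692 in distal tubule (4798 to 6886), 4067 in proximal tubule (3320 to 4603), 981 in monocytes and 570 in B cells. Ndufa4, a complex IV subunit counted here with complex I by its name, averaged 4838 CPM in intercalated cells (3663 to 5607) and 2716 CPM in proximal tubule (2180 to 3005). In T cells Ndufa4 averaged 479 CPM (390 to 546). Atp5e, the epsilon subunit of the ATP synthase, averaged 3880 CPM in distal tubule (3143 to 4556) and 954 CPM in B cells (826 to 1081).

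Uqcrh, the hinge subunit of complex III that holds cytochrome c1, averaged 2344 CPM in intercalated cells (2126 to 2586) and 871 CPM in T cells (839 to 960), a smaller contrast than most. Sdhb, the iron-sulfur subunit of complex II, averaged 1052 CPM in distal tubule (899 to 1163) and 142 CPM in B cells (130 to 158). For each of these 5 genes the tubule and immune ranges did not meet, while distal tubule and intercalated cells overlapped for Cox6c, Ndufa4, Atp5e and Uqcrh but not for Sdhb.

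**Figure D3:**
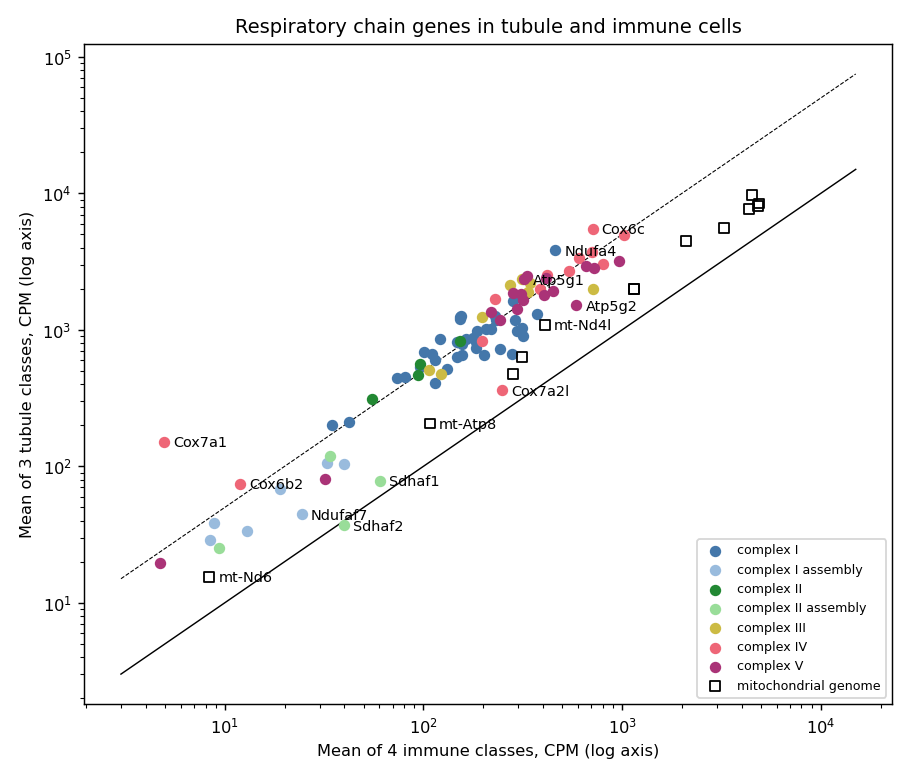
Mean level of each gene over the 4 immune classes (x axis) and the 3 tubule classes (y axis), in CPM on log axes, for genes with at least 10 CPM in some class; the solid line marks equal levels and the dashed line a factor of 5. Most nuclear genes lie along the dashed line, the mitochondrial genes lie nearer the solid line, Cox7a1 lies far above and Sdhaf2 on the line of equal levels.

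Genes that departed from this pattern included complex II assembly factors. Sdhaf2, which helps attach the flavin cofactor to complex II, averaged 22.1 CPM in proximal tubule (19.02 to 27.9) and 49.9 CPM in B cells (44.1 to 55.7), although intercalated cells had a mean of 51.2 CPM (34.5 to 63.5). Sdhaf1, which helps insert its iron-sulfur clusters, averaged 88.3 CPM in proximal tubule (74.1 to 110), 72.6 in T cells (64.8 to 85.8) and 8.0 in neutrophils. The highest Sdhaf1 mean, 91.6 CPM in monocytes and macrophages (53.1 to 191), rested on saline mouse 1, with the other mice at 80.0 CPM or less. Cox7a2l, a factor that joins complexes III and IV into supercomplexes, averaged 213 CPM in proximal tubule (199 to 228) and 328 in T cells (308 to 362), with no overlap. Intercalated cells had the most Cox7a2l, 551 CPM (504 to 596).

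Several of the widest spans between classes came from neutrophils. Their sums held 135792 to 562414 UMIs per mouse, so levels of a few CPM there rest on very few UMIs. The part of this and of the abundant neutrophil marker RNA in the spans was not tested. Ndufaf4, a complex I assembly factor, averaged 137 CPM in distal tubule (130 to 151) and 4.1 CPM in neutrophils (1.8 to 7.4), a 33.6-fold span. Atp5sl, known as an assembly component of complex I despite its name, averaged 130 CPM in distal tubule (102 to 157), 66.8 in B cells (61.0 to 70.8) and 5.4 in neutrophils (0 to 12.9). Its B cell values lay above those of proximal tubule (40.9 to 52.4) and T cells (26.4 to 30.6). Ndufaf5, another complex I assembly factor, spanned 21.6-fold, the core-associated subunit Ndufa10 17.5-fold, and Uqcrb, a subunit of complex III, 16.1-fold, each with neutrophils lowest.

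Complex IV exists in tissue forms, and these marked kidney cell types. Cox7a1, known as the heart and skeletal muscle form of subunit VIIa, stood at 483 and 271 CPM in intercalated cells of the saline mice and at 151, 313 and 311 CPM in those of the FMT mice. In proximal tubule it stood at 53.0 to 81.5 CPM and in distal tubule at 60.6 to 89.8 CPM. In every immune class it stood at 17.02 CPM or less. The intercalated range lay above all others, a 147-fold span from intercalated to T cells in the means. Cox7a1 made up 7.65% of the UMIs of Cox7a1, Cox7a2 and Cox7a2l in intercalated cells (4.73% to 10.2%) and 3.09% in proximal tubule (2.56% to 3.52%).

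Cox6b2, known as the testis form of subunit VIb, was highest in proximal tubule. It stood at 162 and 165 CPM in the saline mice and at 193, 130 and 178 CPM in the FMT mice. Distal tubule had 25.2 to 51.5 CPM, intercalated cells 8.4 to 54.0 CPM and T cells 1.8 to 4.3 CPM. Proximal tubule lay above all other classes in every mouse. There Cox6b2 took 7.41% of the Cox6b1 and Cox6b2 UMIs (5.51% to 9.50%), against 0.74% in intercalated cells (0.298% to 1.67%). Proximal tubule marker genes summed to 279 to 787 CPM in B and T cells, and the part of such RNA in the low immune Cox6b2 levels was not tested.

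The ubiquitous partners Cox6b1 and Cox7a2 supplied most of each family in the tubule. Cox7a2l took 42.4% to 54.0% of the Cox7a family in B and T cells, but 8.18% to 18.6% in tubule cells. Monocytes and macrophages, at 18.5% to 34.9%, met the tubule range, and neutrophils had 21.5% to 26.5%. The other tissue forms Cox4i2, Cox6a2, Cox8b, Cox8c and Ndufa4l2, together with Cox7b2, were the 6 nuclear genes under 10 CPM in every class. Cox6a2 was the highest of them, with 1.89 CPM in proximal tubule, and Cox8c had 0 UMIs in the used cells.

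The 3 genes for subunit c, which forms the rotating ring of the ATP synthase, encode the same mature protein and differ in their import signals. Atp5g2 held 54.3% to 58.9% of the family's UMIs in B cells and 54.6% to 57.8% in T cells. It held 23.1% to 28.97% in proximal tubule, 20.5% to 22.3% in distal tubule and 29.5% to 32.9% in intercalated cells. Atp5g1 showed the reverse, with 21.5% to 25.2% in B and T cells and 35.7% to 47.2% in the tubule. Monocytes with macrophages and neutrophils lay between and partly met the tubule. Atp5g1 held 26.2% to 36.1% and 25.5% to 35.2% there, and Atp5g2 37.4% to 47.7% and 32.0% to 42.6%. Levels of Atp5g1 were 1421 to 1808 CPM in proximal tubule and 254 to 322 CPM in B cells. Levels of Atp5g2 were 856 to 1293 CPM and 648 to 753 CPM in these classes. UMIs of these paralogs may be split imperfectly where their sequences are alike.

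**Figure D4:**
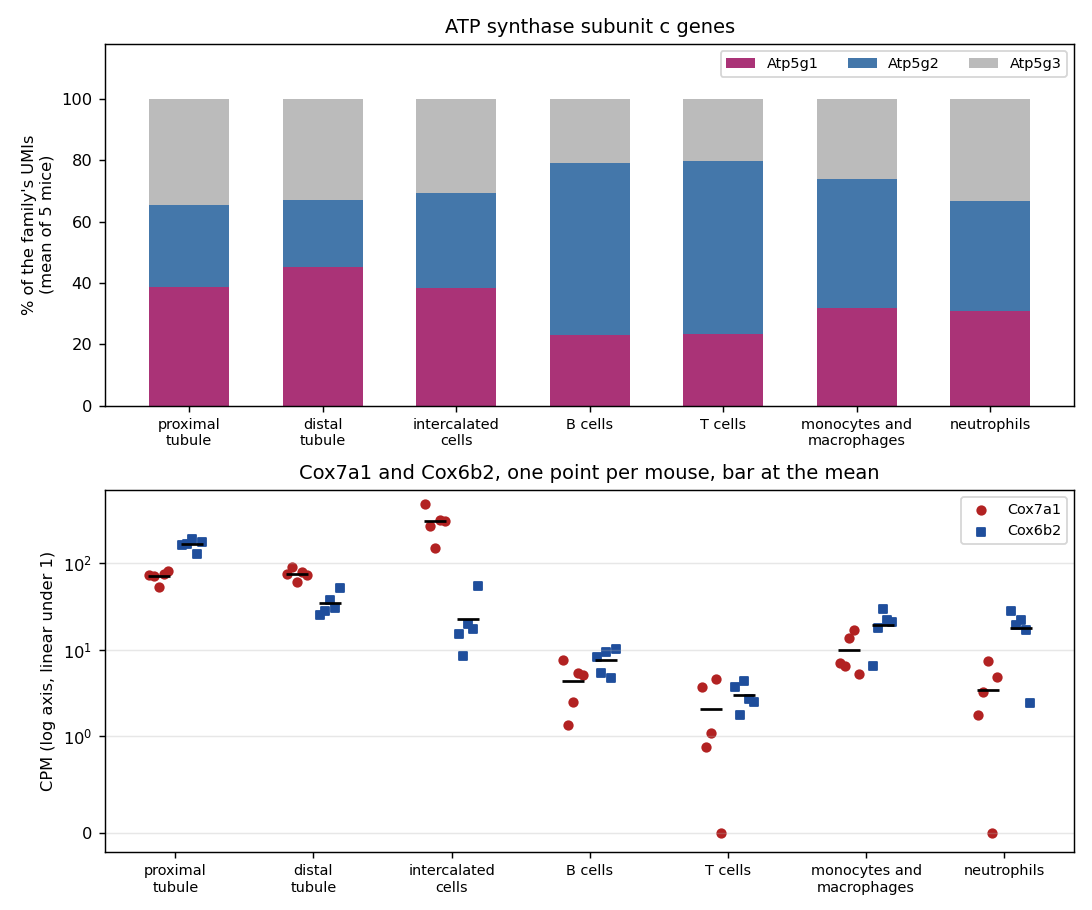
Top, share of Atp5g1, Atp5g2 and Atp5g3 in the family's UMIs by class (stacked bars, mean of 5 mice, in percent). Bottom, Cox7a1 and Cox6b2 levels in CPM on a log axis (linear under 1), with 1 point per mouse and a bar at the mean; Cox7a1 is highest in intercalated cells at 151 to 483 CPM and Cox6b2 in proximal tubule at 130 to 193 CPM.

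The promoters of these contrasting pairs are shown because the members of each pair differ in how their levels are spread over the lineages. RefSeq's promoter table (build GRCm38.p6), from 250 bases before to 50 after a gene's start, held 77 of the 96 nuclear genes. Capitals mark matches, on either strand, to 5 short motifs: TGCGCA (core of the NRF1 site), CTTCCG (core of ETS sites, which GABP binds), AAGATGG (YY1), AAGGTCA (estrogen-related receptors) and CCAAT.
Cox7a1 (chr7:30183921-30184220, plus strand): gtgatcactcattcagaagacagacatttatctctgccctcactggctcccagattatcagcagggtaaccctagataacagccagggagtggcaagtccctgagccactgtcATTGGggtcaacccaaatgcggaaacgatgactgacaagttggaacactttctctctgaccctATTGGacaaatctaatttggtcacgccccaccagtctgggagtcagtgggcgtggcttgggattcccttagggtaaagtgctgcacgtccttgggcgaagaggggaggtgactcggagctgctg
Cox7a2 (chr9:79759804-79760103, minus strand): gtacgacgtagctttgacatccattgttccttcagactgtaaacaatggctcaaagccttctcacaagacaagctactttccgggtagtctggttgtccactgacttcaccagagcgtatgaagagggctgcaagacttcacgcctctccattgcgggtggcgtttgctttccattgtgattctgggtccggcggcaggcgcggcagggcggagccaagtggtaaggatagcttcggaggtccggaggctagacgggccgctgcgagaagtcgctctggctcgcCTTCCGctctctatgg
Cox6b1 (chr7:30626065-30626364, minus strand): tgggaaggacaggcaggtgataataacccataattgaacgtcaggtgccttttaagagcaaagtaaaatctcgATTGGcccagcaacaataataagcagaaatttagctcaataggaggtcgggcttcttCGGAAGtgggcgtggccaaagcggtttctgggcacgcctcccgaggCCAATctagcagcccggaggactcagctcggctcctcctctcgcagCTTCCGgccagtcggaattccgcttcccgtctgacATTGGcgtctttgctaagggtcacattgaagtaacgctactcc
Cox6b2 (chr7:4753045-4753344, minus strand): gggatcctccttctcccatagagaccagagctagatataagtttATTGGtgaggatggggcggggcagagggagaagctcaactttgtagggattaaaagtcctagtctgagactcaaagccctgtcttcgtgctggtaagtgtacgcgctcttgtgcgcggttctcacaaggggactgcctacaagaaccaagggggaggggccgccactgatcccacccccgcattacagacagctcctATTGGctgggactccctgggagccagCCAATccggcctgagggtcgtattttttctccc
Atp5g1 (chr11:96075582-96075881, minus strand): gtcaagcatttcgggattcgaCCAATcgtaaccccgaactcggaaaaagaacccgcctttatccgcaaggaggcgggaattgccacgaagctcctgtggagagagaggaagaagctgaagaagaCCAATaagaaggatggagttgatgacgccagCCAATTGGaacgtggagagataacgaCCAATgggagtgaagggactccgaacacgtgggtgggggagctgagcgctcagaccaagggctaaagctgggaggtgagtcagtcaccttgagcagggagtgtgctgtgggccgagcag
Atp5g2 (chr15:102670998-102671297, minus strand): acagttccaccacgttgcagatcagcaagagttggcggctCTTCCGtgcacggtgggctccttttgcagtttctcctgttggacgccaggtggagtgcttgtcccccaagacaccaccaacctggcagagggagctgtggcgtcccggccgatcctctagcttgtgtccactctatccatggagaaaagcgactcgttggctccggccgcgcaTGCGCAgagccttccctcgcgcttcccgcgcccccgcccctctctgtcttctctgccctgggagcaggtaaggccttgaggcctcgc

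CTTCCG occurred in 41.6% of the 77 gene promoters against 17.2% of 27025 promoters, TGCGCA in 25.97% against 8.06%, AAGATGG in 11.7% against 6.48%, AAGGTCA in 10.4% against 4.66% and CCAAT in 42.9% against 37.9%. The gene promoters had a median GC content of 58.3% against 52.7% and a CpG ratio (observed over expected) of 0.83 against 0.39, and the part of base composition in the motif shares was not tested. Among the promoters printed, Cox7a2, Cox6b1 and Atp5g2 each held CTTCCG, and Atp5g2 also TGCGCA. The Atp5g2 window belongs to a start inside the gene, whose GENCODE span on the minus strand begins at base 102672352. Cox7a1, Cox6b2 and Atp5g1 held none of the motifs other than CCAAT, which occurred 5 times in Atp5g1. These pairs were chosen with their values known, and a match describes letters only.

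FMT was compared with saline gene by gene in each class, to ask whether the transplant changed respiratory chain transcription in kidney cells. No respiratory chain gene passed the threshold in any of the 7 classes (edgeR quasi-likelihood test, Benjamini-Hochberg adjustment at 0.05 over all genes of the class). Between 87 and 104 of the 109 genes passed the low count filter in a class and DESeq2 also called 0 in each class. Few genes of any kind were called. The share of all tested genes called by edgeR was 0.0857% in proximal tubule, 0.268% in distal tubule, 0% in intercalated cells, 0.119% in B cells, 0.0217% in T cells, 0% in monocytes and macrophages and 0.337% in neutrophils. By DESeq2 these shares were 0.763%, 0.198%, 0%, 0.131%, 0.130%, 0.075% and 0.398% in the same order. With 2 against 3 mice, a p that misses the threshold does not show that levels were alike.

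At an unadjusted p under 0.05, edgeR gave 2 of 104 respiratory chain genes in proximal tubule and 2 of 103 in distal tubule, where 11.2% and 4.81% of all tested genes reached it. It gave 2 of 99 in intercalated cells and 5 of 102 in B cells, against 2.43% and 6.13% of all genes. In T cells it gave 1 of 101, in monocytes 2 of 97 and in neutrophils 1 of 87, against 5.83%, 5.85% and 9.04%. DESeq2 gave 10 of 104 genes in proximal tubule, where 8.20% of all genes reached that p, 2 of 97 in monocytes (3.05%) and 1 of 87 in neutrophils (5.27%). In distal tubule, intercalated cells, B cells and T cells it gave 0, against 1.81%, 0.567%, 1.71% and 2.13%. Each edgeR count was a smaller share of the respiratory chain genes tested than the share over all genes. The DESeq2 count in proximal tubule was a larger share.

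Nuclear fold changes had small medians, some of which also rested on single mice or on the choice of cells. In proximal tubule 70 of 91 nuclear genes tested had positive log2 fold changes, with a median of 0.11 against -0.01 over all genes. Without saline mouse 2 this became 45 of 91 with a median of -0.0004. In distal tubule 70 of 90 were positive with a median of 0.06, and in monocytes and macrophages 65 of 84 with 0.15. In the largest monocyte cluster alone it was 69 of 83 with 0.24. Among cells chosen by Lyz2 alone, a choice that also takes in neutrophils, it was 7 of 79 with -0.18. In B and T cells 51 of 89 and 48 of 88 were positive, and both medians were 0.01, which became -0.03 and -0.08 without saline mouse 2. Intercalated cells had 28 of 87 positive with a median of -0.07, and 69 of 86 with 0.13 when chosen by 1 marker. Neutrophils had 24 of 75 positive with a median of -0.13, which became 49 of 75 with 0.10 without saline mouse 1 and 39 of 74 with 0.01 without FMT mouse 3. In the largest neutrophil cluster alone it was 62 of 71 with 0.42. Proximal tubule marker genes summed to 341.4 and 605.5 CPM in all neutrophils of the saline mice and 2695, 1285 and 470 CPM in those of the FMT mice. Their part in the neutrophil fold changes was not tested.

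The mitochondrial genes had larger medians, most of which rested on single mice. In B cells 1 of 13 was positive with a median log2 fold change of -0.71, which became 0.22 without saline mouse 2. In T cells the median was -0.55 and became 0.32, in monocytes -0.51 and 1.53, and in neutrophils -0.99 and 1.35. In distal tubule 13 of 13 were positive with a median of 0.44, which became -0.07 without FMT mouse 1. In intercalated cells it moved from 0.17 to -0.89 without that mouse. Only in proximal tubule, at -0.40 with 0 of 13 positive, did the median keep its sign without any 1 mouse of this pair, at -0.23 without saline mouse 2 and -0.71 without FMT mouse 1.

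**Figure D5:**
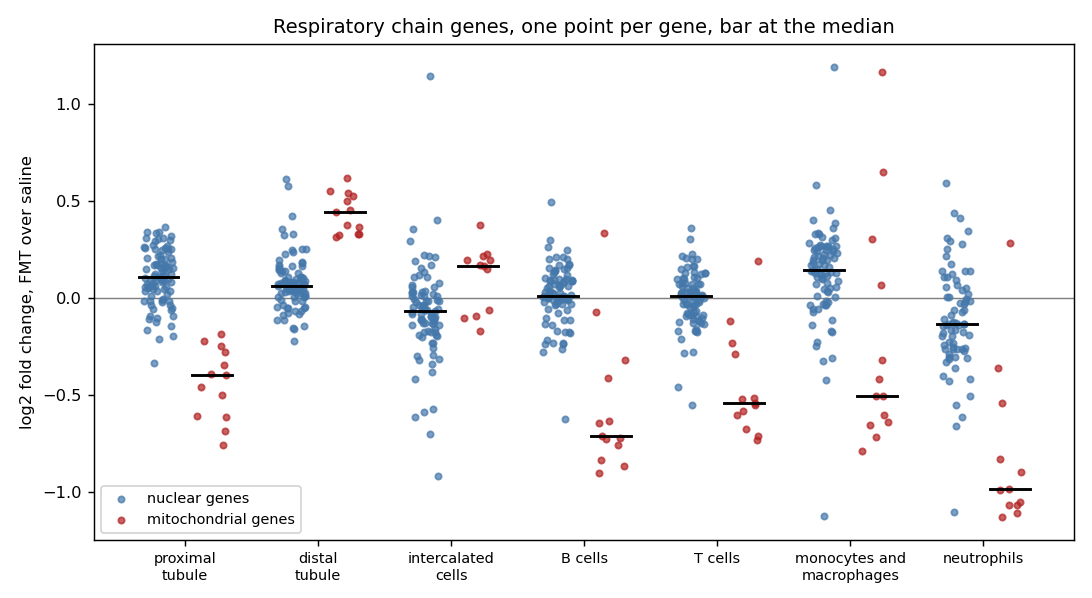
Log2 fold change of FMT over saline for each respiratory chain gene that passed the count filter, by class, with nuclear genes in blue, mitochondrial genes in red and a black bar at the median. Nuclear medians lie between -0.13 and 0.15, and mitochondrial medians range from -0.99 in neutrophils to 0.44 in distal tubule; 0 genes passed the test.

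The genes with the smallest p are given as values, none being called. mt-Nd3, a complex I subunit, stood in proximal tubule at 721 and 1142 CPM in the saline mice and at 671, 503 and 450 CPM in the FMT mice. These groups did not overlap, and the log2 fold change was -0.76 (SE 0.23, edgeR adjusted p = 0.297). In B cells mt-Nd3 stood at 166 and 412 CPM, and at 190, 138 and 141 CPM, with overlap. Its log2 fold change there was -0.90 (SE 0.29, edgeR adjusted p = 0.628). mt-Nd1 and mt-Nd4, also of complex I, had log2 fold changes of -0.84 and -0.73 in B cells, with saline mouse 2 at 1777 and 3239 CPM above all other mice. Without saline mouse 1, 9 mitochondrial genes were called lower in B cells, where 0.228% of all genes were called. In distal tubule, with 0.320% of all genes called, mt-Nd4l was then called higher (log2 fold change 1.63, edgeR adjusted p = 0.0223). Such fits assume that the lone saline mouse varies like the FMT mice. Without saline mouse 2, 0 were called in either class.

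Ndufaf7, a methyltransferase that acts on complex I during assembly, stood in intercalated cells at 23.02 and 31.5 CPM in the saline mice and at 46.1, 65.1 and 82.6 CPM in the FMT mice. All FMT values were higher, with a log2 fold change of 1.15 (SE 0.39, edgeR adjusted p = 0.9996). In proximal tubule it stood at 24.6 and 33.1 CPM, and at 36.0, 36.5 and 35.5 CPM, again without overlap, and its log2 fold change was 0.34 (SE 0.14, edgeR adjusted p = 0.422). Atp5c1, the central stalk subunit of the ATP synthase, stood at 710 and 745 CPM in proximal tubule, and at 918, 928 and 936 CPM. Its values were close within each group, with a log2 fold change of 0.36 (SE 0.17, edgeR adjusted p = 0.465).

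Sdhaf3, a complex II assembly factor, had a log2 fold change of 0.31 in proximal tubule, and mt-Nd1 and mt-Nd2 had -0.69 and -0.61. In distal tubule mt-Nd5, Cox6b2 and Atp5s had 0.62, 0.58 and 0.61, and Cox7a1, Atp5k and Atp5sl -0.22, -0.16 and -0.16. In intercalated cells Ndufs8 and Sdha had 0.36 and 0.29, and Atp5sl, Ndufa2 and Ndufaf4 -0.92, -0.38 and -0.70. Proximal tubule marker genes summed to 148 and 168 CPM in distal tubule of the saline mice and 634, 387 and 497 CPM in that of the FMT mice. Their part in the distal Cox6b2 value was not tested.

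In immune cells, Ndufv3, an accessory subunit of complex I, stood in neutrophils at 245 and 225 CPM in the saline mice and at 140, 117 and 119 CPM in the FMT mice. The groups did not overlap, and the log2 fold change was -1.11 (SE 0.27, edgeR adjusted p = 0.200). A neutrophil cluster led by the granule protein genes Camp, Ngp and Ltf gave 32 and 27 of these cells in the saline mice and 0, 5 and 11 in the FMT mice. In the other, larger cluster alone Ndufv3 stood at 71.2 and 138.6 CPM, and at 139.9, 96.1 and 63.4 CPM, with overlap and a log2 fold change of -0.12 (edgeR adjusted p = 0.986). Ndufaf2, a complex I assembly factor, stood in T cells at 27.8 and 34.2 CPM, and at 17.8, 22.4 and 22.4 CPM, with a log2 fold change of -0.56 (SE 0.21, edgeR adjusted p = 0.784). Sdhaf1 stood in monocytes at 191 and 75.6 CPM, and at 80.0, 57.9 and 53.1 CPM, where saline mouse 1 alone was high.

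Other values in monocytes were log2 fold changes of 1.17 for mt-Nd6, 1.19 for Cox6b2, 0.65 for mt-Nd4l, -0.43 for Ndufaf3 and -0.33 for Uqcrh. There mt-Nd6 rested on 62 UMIs and Cox6b2 on 75 over all mice. Proximal tubule marker genes summed to 393 and 1692 CPM in monocytes of the saline mice and 2627, 1846 and 714 CPM in those of the FMT mice. Their part in the monocyte Cox6b2 value was not tested. In B cells Ndufaf1, Uqcrc2 and Atp5a1 had 0.50, 0.30 and 0.21, and in T cells Uqcrc2, Atp5a1 and Ndufs4 had 0.30, 0.21 and 0.22. mt-Nd3 and mt-Nd4 had -0.61 and -0.59 in T cells. In neutrophils Ndufs3, Uqcrfs1 and Ndufa12 had 0.41, 0.34 and 0.59, and Ndufa6 and Ndufa11 -0.66 and -0.55. Neutrophil sums came from 41 to 128 cells per mouse, the fewest of the classes.

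A further 6 lists of related genes were read in the same fits: regulators of mitochondrial biogenesis, mitochondrial genome maintenance and transcription, assembly factors of complexes III to V, electron carriers and ATP export, the citric acid cycle, and glycolysis. No list had a gene called by edgeR in any class, with 14 genes at an unadjusted p under 0.05 of 96 tested in proximal tubule, where 11.2% of all genes reached it. There were 4 such genes of 91 in distal tubule and 6 of 88 in B cells, against 4.81% and 6.13% of all genes. T cells had 6 of 92 and monocytes 2 of 73, against 5.83% and 5.85%. Intercalated cells had 0 of 73 and neutrophils 0 of 46, against 2.43% and 9.04%. DESeq2 called 1, Suclg1 of the citric acid cycle (log2 fold change 0.56, DESeq2 adjusted p = 0.0385), in proximal tubule, where it called 0.763% of all genes, and 0 elsewhere. In proximal tubule 15 of 15 carrier and export genes had positive log2 fold changes with a median of 0.23, and 13 of 15 glycolysis genes a median of 0.21, against -0.01 over all genes. Among biogenesis regulators 4 of 11 were positive there, with a median of -0.15.

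By level, the lists showed how far the tubule excess extended beyond the chain. Carrier and export genes summed to 10015 to 20475 CPM in the tubule classes and 1731 to 4296 CPM in the immune classes, and citric acid cycle genes to 3408 to 7644 CPM and 492 to 1501 CPM. Glycolysis genes also had higher mean sums in the tubule, at 5880 to 17175 CPM against 1784 to 5950 CPM. Their ranges met between proximal tubule and neutrophils. Genome maintenance genes summed to 462 to 616 CPM in the tubule, 293 to 401 CPM in B and T cells, 291 to 345 CPM in monocytes and 107 to 177 CPM in neutrophils. Tfam, which packages mitochondrial DNA and starts its transcription, averaged 44.4 CPM in proximal tubule (41.9 to 47.9) and 60.7 CPM in B cells (49.2 to 78.4), with no overlap and in the order opposite to the chain. Ppargc1a, the coactivator PGC-1alpha that drives mitochondrial biogenesis, averaged 229 CPM in distal tubule (135 to 308), 49.97 in proximal tubule (41.3 to 62.0) and 1.4 in T cells (0.89 to 1.9). Ucp2, an inner membrane carrier, ran against the chain, with 131 to 269 CPM in proximal tubule and 800 to 1211 CPM in monocytes. Tfam, Ppargc1a and Ucp2 were chosen after their values were seen.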

How the data were processed

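Single-cell RNA of kidney was measured in 5 mice. The deposited matrices hold raw UMI counts per gene and barcode from the authors' Cell Ranger run. The submitters' processing notes name version 2.1.1 and the mm10 build, the matrix headers version 4.0.0. The labels also describe a bulk library kit, so the chemistry is uncertain. Replicates are separate libraries labelled as separate mice.

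Barcodes were kept from 200 detected genes up when mitochondrial UMIs were below 50%, and 883 likely doublets were removed by similarity to summed cell pairs, leaving 21708. For clustering, each cell was scaled to 10000 UMIs and log-transformed. Clusters (32) came from 2000 variable genes, 30 components and 15 neighbours with scanpy 1.11.5 and leidenalg 0.10.2, without respiratory chain genes. A cluster of 869 cells with few UMIs stayed unnamed. UMIs were summed per mouse and class and tested with edgeR 4.0.16 (TMM, filterByExpr, quasi-likelihood F test) in R 4.3.3, and with DESeq2 1.42.0 as an alternative; the test was tested on simulated data. The p-values reflect only the spread among the 5 mice. Library pairs differed beyond sampling noise (chi-square per gene of at least 32.3), so none counted as a duplicate. Gene positions came from GENCODE M21, in which all 109 genes were found.

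The genes and lists were chosen with earlier results of these data known. Genes named are those called, the 3 per direction and class with the smallest p, the mitochondrial genes, tissue-form families, the most abundant gene of each complex and the 8 widest spans between classes at 30 CPM or more. Others are named as examples of a count. Intervals are exact binomial at 95% and, like all counts, cover counting error only. Twnk was not found by its symbol and was not used.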

Additional observations from a re-analysis of the deposited data

How the results depend on the processing

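Alternatives were another test (DESeq2), another scaling, no low count filter, no mitochondrial genes in the fit, other mitochondrial limits, classes chosen by 1 marker, doublets kept, a replicate block and each mouse left out; for sums also another denominator, means over cells and no assembly factors. The low-UMI cluster added to proximal tubule and intercalated cells without the Slc26a4 cluster, and the largest cluster alone of monocytes and of neutrophils, were chosen after seeing the data.

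With all mice kept, the count of respiratory chain genes called was 0 in 62 of 66 combinations of a class and an alternative. The exceptions were all without the low count filter, with 1 called in proximal tubule, 9 in B cells, 3 in T cells and 1 in monocytes and macrophages, and over all genes 282, 76, 84 and 194; the cause was not tested. Those called were mt-Nd3 in proximal tubule, mt-Nd1, mt-Nd2 and mt-Co3 in T cells, Sdhaf1 in monocytes and 9 mitochondrial genes in B cells. When a mouse was left out, the count ranged from 0 to 1 in distal tubule and 0 to 9 in B cells, and was 0 elsewhere. Without 1 saline mouse the other is assumed to vary like the FMT mice.

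Leaving out a mouse moved the difference in log2 ratio (nuclear over mitochondrial, FMT minus saline) from -0.28 to 1.39 in B cells, -1.42 to 1.61 in monocytes and macrophages and -1.54 to 2.18 in neutrophils. Log2 fold changes ranged in B cells from -1.23 to 0.076 for mt-Nd4 and -1.43 to 0.22 for mt-Nd1, and in T cells from -1.08 to 0.13 for mt-Nd3 and -1.06 to 0.13 for mt-Nd4, lowest without saline mouse 1 and above 0 without saline mouse 2. In the largest neutrophil cluster alone Ndufa11 turned to 1.18, from -0.55. The median of the mitochondrial genes in monocytes turned to 0.14 under a limit of 30% mitochondrial UMIs and in intercalated cells to -0.12 without a limit.

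Shared replicate numbers do not pair the mice, which are separate animals. Deviations from group means of same-numbered mice correlated from -0.36 to 0.23 over genes. With the replicate block 0 respiratory chain genes were called in all 7 classes, and the monocyte median of the mitochondrial genes was 0.51. DESeq2 called 89 genes of any kind in proximal tubule where edgeR called 10, and the block 21 there, 49 in distal tubule, 12 in intercalated cells, 2 in B cells, 38 in T cells and 124 in neutrophils. Fewest genes were tested in intercalated cells and neutrophils, 4409 and 3264; the parts of cell number and depth were not tested.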

Other observations

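Cox6a2, the heart and skeletal muscle form of complex IV subunit VIa, was nearly absent from the 7 classes but present in a small cluster outside them, which mixed myeloid progenitor genes with Siglech, a marker of plasmacytoid dendritic cells. In the 54 cells of that cluster with a Siglech UMI, Cox6a2 stood at 1214 CPM, and 45 of them, 83.3% (exact 95% interval 70.7% to 92.1%), held at least 1 Cox6a2 UMI. It stood at 1821 and 1094 CPM in the saline mice and at 968, 1206 and 1404 CPM in the FMT mice. The other 180 cells of the cluster stood at 11.99 CPM, with Cox6a2 in 2.22% of cells. It was found in 0 of 2354 B cells and 0 of 2724 T cells, which allows shares of up to 0.157% and 0.135% with a captured UMI (exact interval), not of cells expressing the gene. Median depth was 5652 UMIs in the Siglech cells and 2703 and 3926 in B and T cells. Proximal tubule, with 5516, had Cox6a2 in 1.11% of cells. Cells came from all 5 mice, with 8 to 17 per mouse, and no test between groups was made. This gene and gate were chosen after their values were seen.

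The cluster of 869 cells with few UMIs, a median of 0.318 of its mouse's own, was led by mt-Nd4l, Lars2 and mt-Nd5. Its mitochondrial share was 13.1% and its nuclear share 10.4% of the other UMIs. mt-Nd4l and mt-Nd5 are among the genes whose part of the mitochondrial sum differed between mice.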
